A study of Mus musculus with 20 samples.

Results

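The messenger RNAs of 10 genes that supply 5-phosphoribosyl 1-pyrophosphate (PRPP) and build the purine ring were examined in whole hearts of mice with iron-deficiency anemia (IDA). The genes were the PRPP synthetases *Prps1* and *Prps2*, the synthetase-associated proteins *Prpsap1* and *Prpsap2*, the de novo purine enzymes *Ppat*, *Gart*, *Paics*, *Adsl* and *Atic*, and *Impdh2* of the guanine branch. They were chosen by name, because *Prpsap1* differed very consistently between the diets in these hearts. Their differences between diets are therefore given as a description, without a test. All 10 were found among the 23420 genes counted, and all 10 passed the filter that left 13590 genes.

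Hearts came from 9-week-old wild type C57BL/6 males, 10 on the control diet and 10 on the iron-deficient diet. A heart of each diet that the study set aside for contamination is not named in its text and is therefore among them. Both diets began at 3 weeks of age and lasted 6 weeks. The labels disagree on the iron in the deficient diet, placing it under 2 ppm in one field and over it in another. Poly(A) RNA was sequenced, and read pairs were counted over the exons of each gene. Control libraries held 6797180 to 8960688 counted pairs (median 7902932) and IDA libraries 6682177 to 7833916 (median 6806177). Levels are given in CPM, read pairs relative to library size after TMM normalization, or also per kilobase of exon (RPKM) where genes are compared with each other. Whole hearts mix cell types, so fewer cells of a type and less RNA per cell cannot be told apart. The 6 cardiomyocyte markers were all detected, at a summed level of 2209 to 2918 CPM in control and 2427 to 2968 CPM in IDA hearts, and 3 were called higher (*Tnni3*, *Myl2* and *Nppa*) and 0 lower in IDA. Summed erythroid markers lay between 677.7 and 825.5 CPM in control hearts and between 672.4 and 1364 CPM in IDA hearts, and 6 of the 14 passed the filter, of which 4 were higher and 2 lower in IDA. The α-globin genes *Hba-a1* and *Hba-a2* are listed at 0. Beside these marker counts, 35.0% of all 13590 tested genes were called higher and 32.5% lower (adjusted p below 0.05, edgeR). With the mean log2 level of the 6 erythroid markers that passed the filter as a covariate, the log2 fold change (IDA over control) was 0.59 for *Prpsap1* and -0.65 for *Prps2*, against 0.51 and -0.59 without it.

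PRPP synthetase transfers pyrophosphate from ATP to ribose 5-phosphate, and its product is the activated sugar on which purines are assembled or salvaged. In mammalian cells the catalytic subunits PRPS1 and PRPS2 sit in a complex with PRPSAP1 and PRPSAP2, relatives without catalytic activity that restrain the enzyme. PPAT, an iron-sulfur protein, commits PRPP to the purine ring, and GART, PFAS, PAICS, ADSL and ATIC carry the ring to inosine monophosphate (IMP), from which the adenine and guanine nucleotides branch. Heart muscle leans on salvage for much of its adenine nucleotide pool, since synthesis of the ring costs several molecules of ATP.

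Before any correction for gene length, *Prps2*, *Prpsap1* and *Prpsap2* had the largest log2 fold changes of the 10 genes. All belong to the synthetase complex, so the promoters of its 4 genes are shown, although *Prps1* differed less (-0.16) than several genes outside the complex. The sequences are the 250 bases before each start site, from RefSeq on GRCm38.p6 (the assembly of mm10), written 5′ to 3′ on the strand of the gene. The windows are chr11:116490347-116490596 on the minus strand for *Prpsap1*, chr11:61762089-61762338 on the minus strand for *Prpsap2*, chrX:140456353-140456602 on the plus strand for *Prps1*, and chrX:167382750-167382999 on the minus strand for *Prps2*. Capitals mark the core of the hypoxia response element, ACGTG or GCGTG on either strand, which was searched because anemia lowers oxygen delivery.
Prpsap1: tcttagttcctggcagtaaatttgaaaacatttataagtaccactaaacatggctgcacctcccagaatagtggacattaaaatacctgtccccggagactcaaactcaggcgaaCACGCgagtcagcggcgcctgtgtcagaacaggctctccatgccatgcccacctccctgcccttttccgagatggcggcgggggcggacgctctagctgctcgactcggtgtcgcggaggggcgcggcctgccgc
Prpsap2: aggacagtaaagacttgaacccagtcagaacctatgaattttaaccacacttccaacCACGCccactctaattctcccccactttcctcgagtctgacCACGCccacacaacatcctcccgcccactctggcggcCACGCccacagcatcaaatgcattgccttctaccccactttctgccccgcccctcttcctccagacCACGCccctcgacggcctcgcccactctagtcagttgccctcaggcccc
Prps1: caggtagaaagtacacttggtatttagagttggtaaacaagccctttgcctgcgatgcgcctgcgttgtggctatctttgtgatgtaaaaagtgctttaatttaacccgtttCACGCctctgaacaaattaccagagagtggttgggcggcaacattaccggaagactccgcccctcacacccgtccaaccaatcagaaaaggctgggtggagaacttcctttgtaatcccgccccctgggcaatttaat
Prps2: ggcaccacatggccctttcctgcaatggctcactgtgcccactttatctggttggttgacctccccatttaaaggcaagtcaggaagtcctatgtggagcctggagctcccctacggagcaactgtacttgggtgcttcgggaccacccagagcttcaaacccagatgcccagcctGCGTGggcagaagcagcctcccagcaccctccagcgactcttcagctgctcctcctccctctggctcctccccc
The core occurred at 4 places in the *Prpsap2* window shown and at 1 place in each of the other 3, so genes that were higher and genes that were lower in IDA hearts both carried it. A further *Prpsap2* window in the reference, chr11:61756346-61756595, did not hold it. Promoters of all 10 genes were in the reference, and 9 genes held the core in at least 1 window, *Gart* being the exception. Among 32851 RefSeq promoter windows of the same length, 38.6% held it. That share is per window and not per gene, and the windows were not matched for GC content, so the counts cannot be compared directly. The E-box CACGTG, which itself contains the core, was found before *Atic*, *Impdh2* and *Paics* and in 6.02% of all windows. A match of these letters is a description and not a bound site.

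*Prpsap1* lies on chromosome 11 of mm10 from 116470816 to 116490346, on the minus strand, with 10 exons of 1868 bp in all. Its level was 50.56 CPM in the lowest control heart, 52.26 CPM at the median and 58.22 CPM in the highest, and 65.58, 78.67 and 81.07 CPM in the IDA hearts. Every IDA heart was above every control heart, and the control hearts kept within a narrow band. The means were 53.2 ± 2.60 CPM in control and 76.0 ± 5.67 CPM in IDA hearts (SD, n = 10 each), a log2 fold change of 0.51 (standard error 0.05) or 42.7% more. These levels rest on 354 to 467 read pairs per control heart and 444 to 629 per IDA heart.

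*Prpsap2*, which encodes the second associated protein, lies on the same chromosome from 61729650 to 61762088 with 12 exons. It was scarcer, with 9.25, 11.15 and 12.89 CPM as the lowest, median and highest control values and 12.46, 14.89 and 16.28 CPM in IDA hearts. Of the 10 IDA hearts, 9 exceeded the highest control heart, and the remaining heart lay inside the control range. The log2 fold change was 0.44 (standard error 0.07), or 35.9% more, from 64 to 104 read pairs per control heart and 80 to 123 per IDA heart.

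The catalytic subunits had the opposite sign. *Prps2* (chromosome X, 167346333 to 167382699, 7 exons) was at 45.53, 49.30 and 62.44 CPM in control hearts and at 29.12, 33.50 and 38.02 CPM in IDA hearts, again as lowest, median and highest. All 10 IDA hearts were below all 10 control hearts. The means of 50.4 ± 4.79 and 33.4 ± 3.46 CPM (SD, n = 10 each) gave a log2 fold change of -0.59 (standard error 0.06), a difference of -33.7%.

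*Prps1* (chromosome X, 140456603 to 140476140, 7 exons) differed less than *Prps2*. It ran from 62.70 through a median of 66.59 to 74.51 CPM in control hearts and from 55.60 through 58.36 to 67.36 CPM in IDA hearts. Of the 10 IDA hearts, 8 were below the lowest control heart, and the ranges overlapped. Its log2 fold change was -0.16 (standard error 0.04), a difference of -10.7%. *Prps1l3*, a close relative of *Prps1* on chromosome 12 (57230412 to 57242168, 2 exons), could share reads with it, so the division of counts between them is uncertain.

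**Figure D1:**
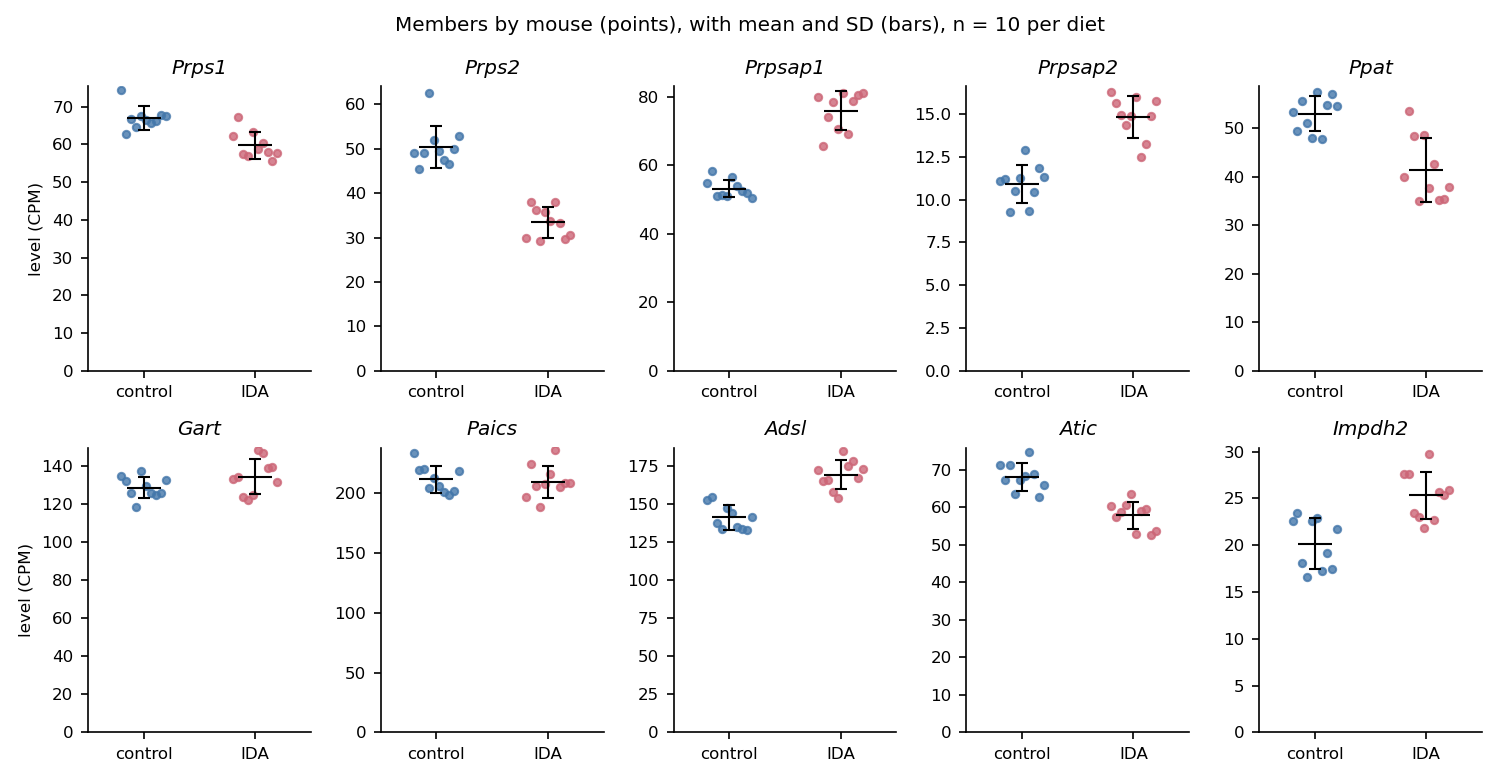
Level of each of the 10 genes in CPM on a linear axis from 0, with 1 point per heart (blue control, red IDA) and bars for the mean and SD of 10 hearts. The IDA hearts lie wholly above the control hearts for *Prpsap1* and wholly below them for *Prps2*, while *Gart* and *Paics* overlap broadly.

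Levels per kilobase can be set against each other within a heart. The associated proteins together amounted to 0.721 ± 0.055 of the catalytic subunits in control hearts and 1.24 ± 0.148 in IDA hearts (ratio of summed RPKM, SD, n = 10 each). The ratio ran from 0.664 to 0.840 in control and from 0.977 to 1.41 in IDA hearts, without overlap. Within the catalytic pair, *Prps2* stood at 0.409 ± 0.0447 of *Prps1* in control hearts and 0.303 ± 0.0260 in IDA hearts, with ranges of 0.357 to 0.525 and 0.260 to 0.342. Within the associated pair, *Prpsap1* per *Prpsap2* was 4.91 ± 0.487 in control and 5.14 ± 0.488 in IDA hearts, ranges that overlapped almost throughout. So on this uncorrected scale the balance shifted between the classes of subunit and within the catalytic pair, and *Prpsap1* and *Prpsap2* kept a similar proportion. The shift within the catalytic pair overlapped between the diets once the trend on gene length was removed, as given below. With length and GC removed, the log2 fold change was 0.22 for *Prpsap1* and 0.42 for *Prpsap2*. These ratios use genes that the choice of *Prpsap1* brought in, and they carry no test.

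**Figure D2:**
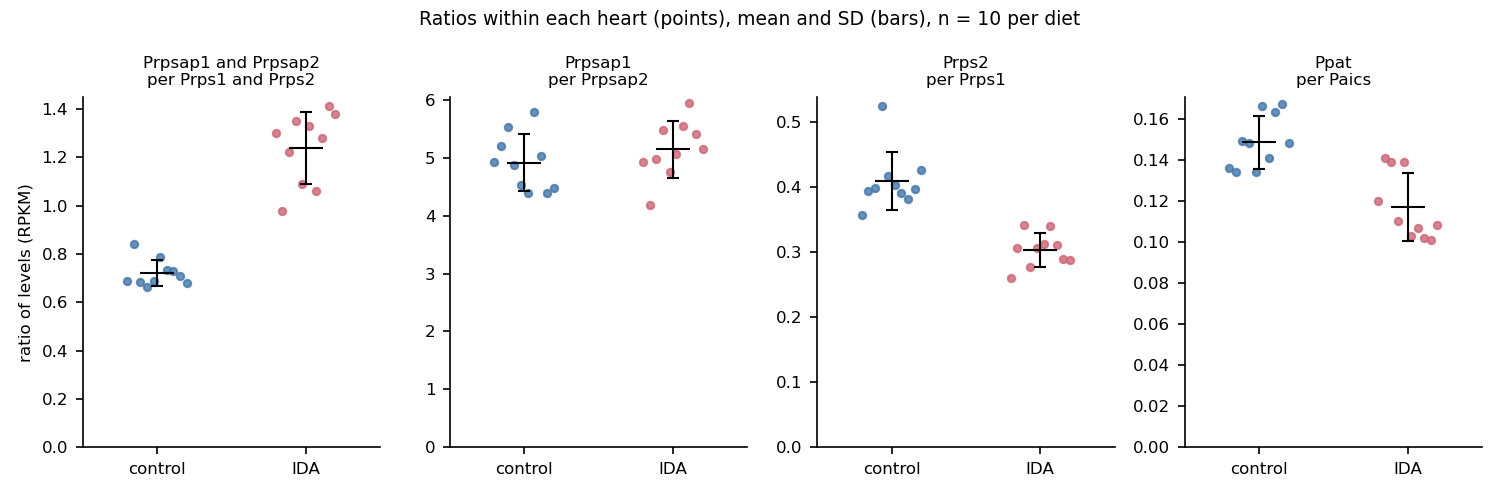
Ratios of RPKM within each heart on linear axes from 0, with 1 point per heart (blue control, red IDA) and bars for mean and SD of 10 hearts. Associated over catalytic subunits does not overlap between the diets, *Prps2* per *Prps1* is lower in IDA hearts, *Prpsap1* per *Prpsap2* is alike, and *Ppat* per *Paics* is lower with overlap. The trend of the differences on gene length is not removed in these values.

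*Ppat*, which commits PRPP to purine synthesis and needs an iron-sulfur cluster, lies on chromosome 5 from 76913249 to 76951578 with 11 exons. Control hearts ran from 47.81 through a median of 53.98 to 57.50 CPM and IDA hearts from 34.99 through 38.86 to 53.47 CPM. Of the 10 IDA hearts, 7 were below every control heart, while the highest was close to the control median. The log2 fold change was -0.35 (standard error 0.07), a difference of -21.7%. *Ppat* was also the least even of the 10 genes among IDA hearts, with a coefficient of variation of 15.9% against 6.80% in control hearts.

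*Paics*, whose protein carries out the carboxylation and the aspartate addition, is read in the other direction from the same stretch of chromosome 5 (76951411 to 76967505, 9 exons). It was the most abundant of the 10 genes and hardly differed, at 198.8, 209.1 and 233.6 CPM in control and 188.6, 208.1 and 235.9 CPM in IDA hearts (lowest, median and highest). Its log2 fold change was -0.01 (standard error 0.04). The outer exons of *Ppat* and *Paics* share 168 bp at chr5:76951411-76951578, which is 4.19% of the exons of *Ppat* and 7.06% of those of *Paics*. Counting ignored strand, so reads there cannot be given to either gene. *Ppat* per *Paics* was 0.149 ± 0.0129 in control and 0.117 ± 0.0165 in IDA hearts (ratio of RPKM, SD, n = 10 each), and 0.137 ± 0.0121 and 0.128 ± 0.0164 with the trend on gene length removed.

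*Gart* (chromosome 16, 91621397 to 91646972, 22 exons) encodes a trifunctional enzyme of the early ring steps. Its control values were 118.2, 127.8 and 137.1 CPM and its IDA values 122.3, 133.7 and 148.2 CPM. The IDA hearts spread across and beyond the control range, with 4 of the 10 above it, and the log2 fold change was 0.06 (standard error 0.04).

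*Adsl* (chromosome 15, 80948490 to 80970947, 13 exons) encodes adenylosuccinate lyase, which acts in ring synthesis and again in the making of AMP. It ran from 132.9 through 139.5 to 154.5 CPM in control hearts and from 153.8 through 169.3 to 184.4 CPM in IDA hearts. All but 1 of the IDA hearts exceeded the highest control heart. The log2 fold change was 0.26 (standard error 0.04), or 19.8% more.

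*Atic* (chromosome 1, 71557156 to 71579403, 16 exons) encodes the enzyme that adds the last formyl group and closes the ring to IMP. Its values were 62.78, 67.83 and 74.84 CPM in control hearts and 52.71, 58.84 and 63.60 CPM in IDA hearts. Here 9 of the 10 IDA hearts were below every control heart, and the log2 fold change was -0.23 (standard error 0.04), a difference of -15.0%.

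*Impdh2* (chromosome 9, 108560501 to 108565566, 14 exons) encodes an isoform of IMP dehydrogenase, the enzyme that opens the guanine branch. It was at 16.66, 20.42 and 23.44 CPM in control hearts and at 21.87, 25.56 and 29.79 CPM in IDA hearts. Of the 10 IDA hearts, 7 were above every control heart. The log2 fold change was 0.33 (standard error 0.08), or 25.5% more.

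Of the 10 genes, 4 were higher (*Prpsap1*, *Prpsap2*, *Adsl*, *Impdh2*) and 4 lower (*Prps1*, *Prps2*, *Ppat*, *Atic*) when called at an adjusted p below 0.05 by edgeR, and *Gart* and *Paics* did not pass. Over all 13590 tested genes, 35.0% were higher and 32.5% lower by the same rule. The ranges of 1 gene did not overlap upward and of 1 gene downward, where 4.97% and 6.28% of all tested genes did so. Since the genes were picked from this contrast, nothing is read from these counts. The median log2 fold change of the 10 genes was 0.02, and that of all tested genes was 0.02.

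Ordered by mean RPKM, the control hearts had *Paics* at 89.0, *Gart* at 38.7, *Adsl* at 38.1, *Prps1* at 33.9, *Prpsap1* at 28.5, *Atic* at 26.1, *Prps2* at 13.9, *Ppat* at 13.2, *Impdh2* at 12.4 and *Prpsap2* at 5.85, a 15.2-fold span from top to bottom. Neighbours whose ranges over the hearts overlapped were *Gart*, *Adsl* and *Prps1*, then *Prpsap1* and *Atic*, and then *Prps2*, *Ppat* and *Impdh2*. In IDA hearts *Prpsap1* (40.7 RPKM) had moved up beside *Adsl* (45.6) and *Gart* (40.4), above *Prps1* (30.3). At the bottom, *Prps2* (9.19 RPKM) stood beside *Ppat* (10.3) and *Prpsap2* (7.95), with overlapping ranges, below *Impdh2* (15.6). The order of the enzymes in the pathway was not the order of their messages, since *Paics* exceeded *Ppat* severalfold in both diets.

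Differences across the whole table followed gene length. Split by exonic length into 10 equal groups, the median log2 fold change went from 0.34 in the shortest genes (median 881 bp) to -0.53 in the longest (median 7761 bp). Among the 500 tested genes nearest in length to each, the median was 0.20 for *Prpsap1*, 0.20 for *Prpsap2* and -0.12 for *Prps2*, that is, of the same sign as the gene itself but smaller. For *Adsl* the genes of like length had a median of -0.12 and for *Prps1* 0.17, opposite in sign to the genes themselves. For *Ppat* the median was -0.13 and for *Impdh2* 0.24.

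With each heart's length curve subtracted, the log2 fold changes were 0.37 for *Prpsap1*, 0.30 for *Prpsap2*, 0.41 for *Adsl*, 0.16 for *Gart*, 0.14 for *Impdh2*, -0.06 for *Paics*, -0.17 for *Ppat*, -0.25 for *Atic*, -0.28 for *Prps1* and -0.46 for *Prps2*. The sign was the same for 10 of 10. At the same threshold 4 were then higher and 4 lower, *Gart* having replaced *Impdh2*, beside 31.5% higher and 23.5% lower of all tested genes. Subtracting GC content as well left *Prpsap1* at 0.22, *Prps2* at -0.27, *Impdh2* at 0.07 and *Ppat* at -0.03, the last 2 no longer past the threshold, while *Prpsap2* was at 0.42, *Adsl* at 0.44 and *Atic* at -0.26. Among the 8, *Ppat* thus came nearest to 0 and *Atic* moved least under these curves. The ratio of associated to catalytic subunits remained apart with the length curve removed, at 0.703 to 0.848 in control and 0.960 to 1.37 in IDA hearts, whereas *Prps2* per *Prps1* then overlapped, at 0.340 to 0.457 and 0.313 to 0.365. Whether the curves remove a technical or a biological trend was not tested.

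**Figure D3:**
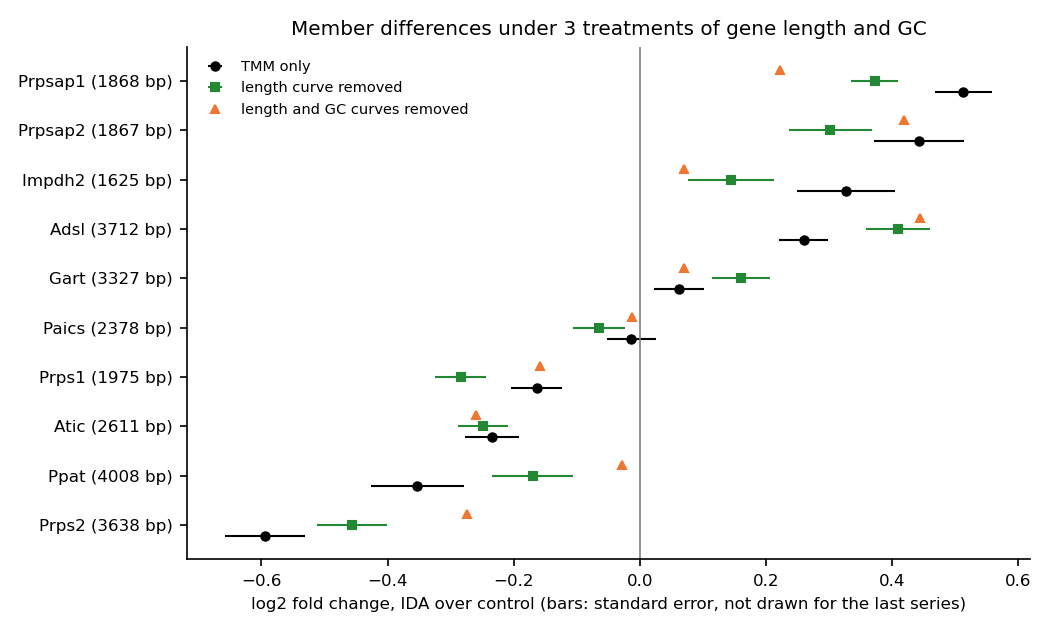
Log2 fold change of IDA over control for the 10 genes, with exonic length in bp beside each name, after TMM scaling (black circles), with the length curve removed (green squares) and with length and GC curves removed (orange triangles). Bars are standard errors, drawn for circles and squares. All 10 genes keep their sign, and *Prpsap1*, *Prps2*, *Ppat* and *Impdh2* come closer to 0.

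The libraries carry numbers in separate runs, of which the lower holds 5 control and 7 IDA hearts and the higher 5 control and 3 IDA hearts. What the runs stand for is not given in the sources used here. *Prpsap1* had a log2 fold change of 0.54 (standard error 0.06) within the lower numbers and 0.45 (standard error 0.08) within the higher. *Prps2* had -0.58 and -0.59. *Ppat* differed more between the runs, at -0.48 (standard error 0.09) and -0.14 (standard error 0.10), and the difference between the runs was not tested. In the higher run *Prps1*, *Ppat* and *Impdh2* did not pass the threshold.

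The consistency of *Prpsap1* within each diet was part of its choice, but how genes varied together from heart to heart was not. This was examined for 6 pairs set by biochemistry or position, 3 of them without *Prpsap1*, in each diet (12 relations). Among the 10 IDA hearts, those with more *Prpsap1* had less *Prps2* (Pearson r = -0.84, permutation p = 0.00282, adjusted p = 0.0338; Spearman rho = -0.66, permutation p = 0.0441, adjusted p = 0.29). Without the 2 hearts farthest from the median *Prps2* level, r was -0.84. In control hearts the same relation had r = -0.55 (permutation p = 0.0966, adjusted p = 0.243). The permutation does not set this relation against those of other genes with *Prpsap1*. Over 20 hearts with diet means removed, *Prps2* ranked 12512 of 13589 genes from the highest r, so many other genes had a more negative r. *Prps1* against *Prpsap1* in IDA hearts gave r = -0.74 (permutation p = 0.0136, adjusted p = 0.0814; rho = -0.50, permutation p = 0.144, adjusted p = 0.307), and it rested on 2 hearts, with r = -0.26 without them.

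The length curve exchanged these results. With it removed, *Prps2* against *Prpsap1* in IDA hearts gave r = -0.62 (permutation p = 0.0539, adjusted p = 0.216), and *Prps1* against *Prpsap1* gave r = -0.84 (permutation p = 0.0025, adjusted p = 0.03), or -0.53 without the 2 farthest hearts. Within the 7 IDA hearts of the lower library numbers, and without removal of the curve, r was -0.79 for *Prps2* (exact permutation p = 0.0363; rho = -0.46, exact permutation p = 0.302) and -0.81 for *Prps1* (exact permutation p = 0.0355; rho = -0.50, exact permutation p = 0.267). With the curve removed in these 7 hearts, *Prps2* gave r = -0.42 (exact permutation p = 0.342) and *Prps1* r = -0.77 (exact permutation p = 0.049). The 3 IDA hearts of the higher numbers were too few. Thus 1 of the 12 relations passed after adjustment by Pearson's r, 0 passed by rho, and 2 had an unadjusted permutation p below 0.05 by r. The GC content of the longest transcript was 55.4% for *Prpsap1*, 45% for *Prps1* and 42% for *Prps2*. The relations were not examined with a GC curve removed.

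The other relations did not pass. *Prps1* against *Prps2* gave r = -0.04 (permutation p = 0.90) in control and 0.56 (permutation p = 0.0871) in IDA hearts. *Prpsap1* against *Prpsap2*, whose mean differences had the same sign, gave r = 0.32 (permutation p = 0.369) and 0.28 (permutation p = 0.435). The divergent neighbours *Ppat* and *Paics* gave r = -0.01 (permutation p = 0.979) and 0.45 (permutation p = 0.20), and *Gart* against *Atic* gave 0.19 (permutation p = 0.597) and -0.55 (permutation p = 0.101). All p-values are two-sided.

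**Figure D4:**
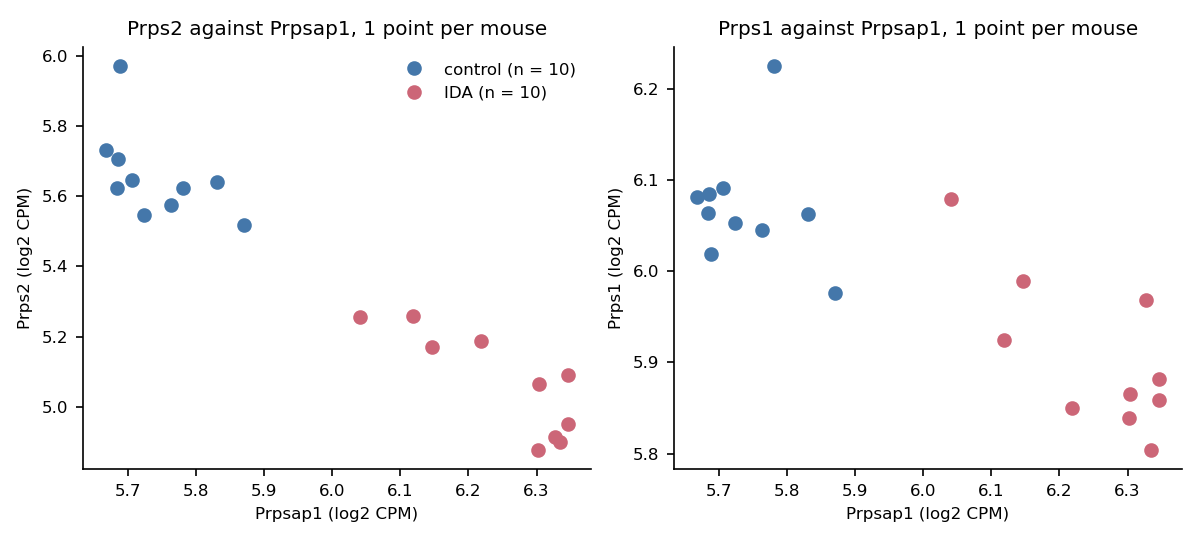
Log2 CPM of *Prps2* (left) and *Prps1* (right) against log2 CPM of *Prpsap1*, with 1 point per heart (blue control, red IDA). The diets form separate clouds, and within the red cloud *Prps2* is lower where *Prpsap1* is higher (r = -0.84, n = 10). Length and GC are not corrected in these values, and r was -0.62 with the length curve removed.

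The genes most like *Prpsap1* from heart to heart, ranked by Pearson's r of log2 CPM over 20 hearts after the mean of each diet was taken out, were *Tcn2* (r = 0.90), *Rexo4* (0.88), *Tysnd1* (0.88), *Smg9* (0.87) and *Zfpl1* (0.87), out of 13589 genes. These values are a description, and the hearts share library depth and the length trend. None of the other 9 purine genes was near the top, *Adsl* coming closest (r = 0.45). Far lower were *Prps1* (r = -0.55, rank 11131), *Ppat* (r = -0.68, rank 12111) and *Prps2* (r = -0.73, rank 12512), though many other genes ranked below each. With the length curve removed the r values of these genes were -0.73, -0.67 and -0.46, so that *Prps1* and *Prps2* changed places.

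Other genes of purine and PRPP metabolism were tested as 8 lists with adjustment over all 13590 genes. The lists, like the genes above, were drawn up with earlier results of these data known. Their p-values and counts are therefore not independent of that knowledge. Of the 79 genes listed, 77 were counted and 69 tested. By edgeR's quasi-likelihood test 36 were higher in IDA hearts, 15 lower and 18 did not pass, beside the 35.0% and 32.5% of all tested genes given above. Their median log2 fold change was 0.13, against 0.02 over all tested genes. With the length curve removed the counts were 28 higher and 12 lower, beside 31.5% and 23.5% of all tested genes. The median was then 0.09, against 0.04 over all tested genes.

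The remaining steps of the ring and its branches moved in both directions, with 2 of 6 higher and 3 lower. *Pfas*, the amidotransferase between the steps of *Gart*, fell from 36.6 ± 5.48 to 24.2 ± 3.98 CPM (SD, n = 10 each), a log2 fold change of -0.60 (adjusted p = 1.18e-05, edgeR) and -0.19 with the length curve removed. *Prps1l3* fell by 0.41 on the log2 scale (adjusted p = 4.18e-05, edgeR). Of the IMP dehydrogenases, *Impdh1* rose by 0.29 (adjusted p = 1.92e-05, edgeR), the same direction as *Impdh2* above. *Adssl1*, the muscle isoform of adenylosuccinate synthetase on the adenine branch, rose by 0.23 (adjusted p = 4.23e-05, edgeR), though not with length and GC removed, where it stood at -0.0768. *Adss*, its relative outside muscle, had a log2 fold change of -0.09 (adjusted p = 0.158, edgeR). *Gmps*, which makes GMP, was lower by this scale at -0.13 (adjusted p = 0.00975, edgeR) and higher with the length curve removed at 0.12.

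The next 2 lists hold genes that phosphorylate or salvage purines. Among the purine nucleotide kinases 6 of 7 rose and 0 fell (4 and 0 with the length curve removed, where *Nme2* went from 0.23 to -0.088), among them *Nme1* (nucleoside diphosphate kinase, 0.47) and *Guk1* (guanylate kinase, 0.37, log2 fold changes). *Guk1* had the opposite sign with length and GC removed, at -0.0885. Among 7 salvage genes 5 rose and 1 fell, but with the length curve removed 3 were higher and 3 lower, and their median log2 fold change went from 0.21 to 0.040. *Hprt*, which joins hypoxanthine and guanine to PRPP, was called higher at 0.13 and lower at -0.10 with the curve removed (adjusted p = 0.0129, edgeR). *Aprt*, which joins adenine to PRPP, rose from 26.2 ± 2.51 to 37.0 ± 5.92 CPM (log2 fold change 0.50, adjusted p = 1.16e-05, edgeR), but stood at -0.0423 with length and GC removed. *Dguok*, the mitochondrial deoxyguanosine kinase, rose by 0.31 and *Slc29a2*, an equilibrative nucleoside transporter, by 0.26. *Dck*, deoxycytidine kinase, fell by 0.53 (adjusted p = 2.12e-04, edgeR).

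Among 15 tested genes of purine breakdown 8 rose and 4 fell (5 and 3 with the length curve removed). *Nt5c1a*, the cytosolic 5′-nucleotidase that makes adenosine from AMP in heart and skeletal muscle, had the largest difference of all 69 genes. It fell from 32.3 ± 7.38 to 14.4 ± 5.04 CPM (log2 fold change -1.18, standard error 0.17, adjusted p = 4.04e-06, edgeR) and was at -1.45 with the length curve removed. *Ampd3*, an AMP deaminase, fell by 0.51 (adjusted p = 1.93e-06, edgeR) and *Nt5e*, the ectonucleotidase CD73, by 0.37 (adjusted p = 0.0457, edgeR). *Nt5e* was at -0.11 within the lower library numbers (adjusted p = 0.615, edgeR) and at -1.07 within the higher (adjusted p = 0.00207, edgeR). Rising genes included *Nt5c* (0.60), *Ada*, adenosine deaminase (0.55), at a low level of 2.17 ± 0.634 and 3.19 ± 0.567 CPM, and *Itpa*, which clears inosine triphosphate (0.44).

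Of 12 genes of the pentose phosphate pathway and ribose supply, which feed ribose 5-phosphate to the synthetases, 8 rose and 2 fell. With the length curve removed, 5 were higher and 1 lower. *Pgls*, the lactonase of the oxidative branch, rose from 52.4 ± 4.76 to 75.4 ± 8.65 CPM (log2 fold change 0.52, adjusted p = 6.69e-07, edgeR). *Rbks* (ribokinase, 0.45) and *Tkt* (transketolase, 0.38) rose as well. *Rpe*, the epimerase, fell by 0.32 and *H6pd* by 0.20, the latter with the opposite sign (0.0666) when the length curve was removed. Of the 3 other users of PRPP tested, *Naprt* rose by 0.33 and *Nampt* fell by 0.16 (adjusted p = 0.0433, edgeR), both in NAD synthesis, and *Nampt* stood at 0.0849 with the length curve removed. Of 7 pyrimidine genes, *Dhodh* (0.29) and *Uck1* (0.24) rose and 0 fell.

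The enzymes that give formyl groups and glycine to the ring were divided, 4 of 12 higher and 4 lower. *Mthfd2*, a mitochondrial folate dehydrogenase, rose from 8.21 ± 2.10 to 13.7 ± 6.53 CPM (log2 fold change 0.74, adjusted p = 0.00421, edgeR), and *Mthfd1l*, the mitochondrial formyltetrahydrofolate synthetase, rose by 0.58 (adjusted p = 0.0222, edgeR). The *Mthfd2* values in IDA hearts ran from 6.88 through a median of 12.03 to 29.74 CPM, and without control replicate 8 and IDA replicate 4 the log2 fold change was 0.46 (adjusted p = 0.0245, edgeR). *Mthfd1l* was at a low level of 1.86 ± 0.618 CPM in control and 2.78 ± 1.05 CPM in IDA hearts. Its log2 fold change was 0.26 within the lower library numbers and 1.03 within the higher. *Fpgs*, which adds glutamates to folates, rose by 0.25. *Aldh1l2*, which oxidizes mitochondrial formyltetrahydrofolate, fell from 42.4 ± 9.00 to 22.5 ± 5.49 CPM (log2 fold change -0.92, adjusted p = 8.63e-06, edgeR). *Amt* of the glycine cleavage system fell by 0.42 and the cytosolic *Aldh1l1* by 0.37.

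Some of these calls depended on the fit. With the length curve removed *Adssl1*, *Dguok*, *Nt5e*, *Rbks*, *Uck1* and *Aldh1l1* no longer passed in edgeR, and with length and GC removed *Impdh1* (0.021), *Slc29a2* (0.019), *Nt5c* (0.051), *Pgls* (0.015), *Ada* (0.27), *Itpa* (0.098) and *Rpe* (-0.099) did not pass either. With the mean log2 level of the 6 tested erythroid markers as a covariate *Mthfd2* was at 0.40 (adjusted p = 0.325, edgeR), and *Mthfd1l*, *Aldh1l1*, *Fpgs*, *Gmps*, *Nt5e*, *H6pd* and *Nampt* also lost the threshold. Leaving out a mouse from each diet ended the call in 64 of 100 fits for *Nt5e*, 62 for *Aldh1l1*, 55 for *Nampt*, 52 for *H6pd* and 24 for *Mthfd1l*. The highest adjusted p in edgeR came without control replicate 7 and IDA replicate 1 for *Nt5e* (0.147), without control 6 and IDA 2 for *Aldh1l1* (0.157), without control 1 and IDA 3 for *Nampt* (0.161), without control 9 and IDA 1 for *H6pd* (0.113), and without control 3 and IDA 4 for *Mthfd1l* (0.0905). The smallest difference of *Nampt*, -0.094, came without control 1 and IDA 4. Within the lower library numbers 8 of the 34 named list genes lost the threshold and within the higher 12, and differences between the runs were not tested.

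**Figure D5:**
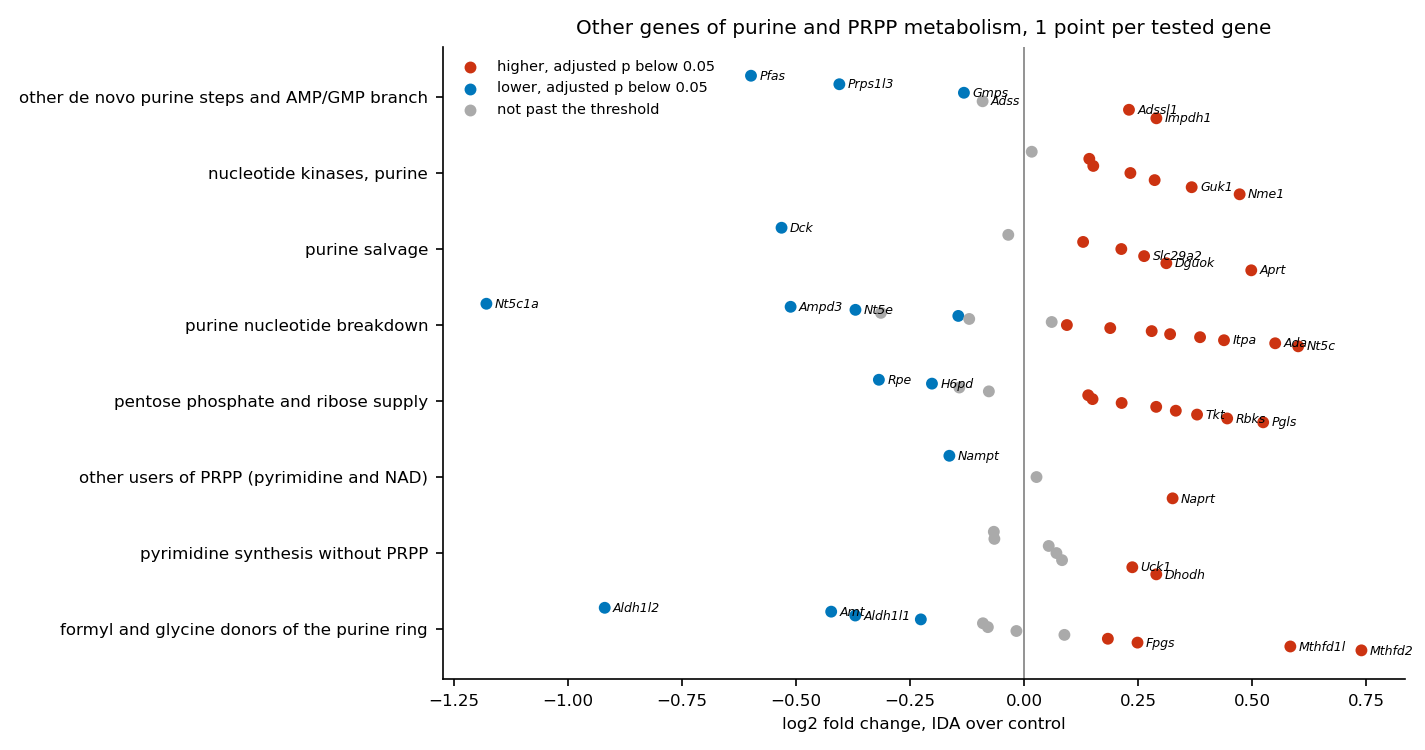
Log2 fold change of IDA over control for the 69 tested genes in the 8 lists, 1 point per gene (red higher, blue lower, grey not past an adjusted p of 0.05 in edgeR), with the genes named in the text labelled. *Nt5c1a* is farthest to the left and *Mthfd2* farthest to the right. Length is not corrected in these values.

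Markers of other cells were counted in the same fit. Of the endothelial markers 2 of 5 were higher and 2 lower in IDA, of the fibroblast markers 1 and 1 of 5, and of the macrophage and leukocyte markers 3 and 1 of 6. Of the 5 proliferation markers tested, which matter because dividing cells make purines de novo, 0 were higher and 0 lower, with summed levels of 61.5 to 84.39 CPM in control and 57.19 to 98.73 CPM in IDA hearts. By the same call 35.0% of all tested genes were higher and 32.5% lower. The part of cell composition in the differences was not tested.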

How the data were processed

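Whole-heart mRNA of 20 mice was analysed, grouped by the diet in the labels. The authors used STAR for alignment to mm10, took out PCR duplicates and deposited read-pair counts per gene name from featureCounts (version 1.4.5-p1), without strand or normalization. The paper left out 1 mouse per group for contamination and does not name it, so all 20 were kept, those judged contaminated included. The 10 genes and the lists were chosen with earlier results of these data known.

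In R 4.3.3, counts were scaled by TMM and tested with edgeR's quasi-likelihood test (version 4.0.16), with diet as the factor and Benjamini-Hochberg adjustment, for genes that reached 1 CPM in 10 or more mice. DESeq2 (version 1.42.0) was an alternative. Log2 CPM used a prior count of 2. Loess curves (span 0.5, degree 1) of each heart's deviations on log2 exonic length, or on length and GC (known for 94.0% of tested genes), entered as offsets. Correlations used 100000 permutations, or all where exact. Named list genes are up to 3 higher and 3 lower per list with the largest change past an adjusted p of 0.05 in edgeR and DESeq2, and the whole list of remaining ring steps. Not every gene this rule selects is reported here. Gene names turned into dates (27) or duplicated (2) were kept. Replicates are separate mice. The steps were tested on simulated data, where edgeR called 79% of 200 changed genes.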

Additional observations from a re-analysis of the deposited data

Results flagged for a closer look

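In 2 of the 20 sets of 10 hearts examined, 1 heart stood far from the others of its diet by Dixon's test, and chance marks about 1 in 20 such sets. The highest *Prps2* level among control hearts was 62.44 CPM, in replicate 4, with the next heart at 52.90 CPM. The highest *Prps1* level among control hearts was 74.51 CPM, in replicate 1, with the next at 67.89 CPM. Different hearts were involved, and both values lay on the side away from the IDA hearts. Over the 100 fits that left out a control and an IDA heart each, the log2 fold change of *Prps2* stayed between -0.64 and -0.53 and that of *Prps1* between -0.20 and -0.13.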

How the results depend on the processing

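The 9177 genes called became 5906 in the higher library numbers alone, which hold 8 hearts, and there the members lower numbered 2 in place of 4 and the list genes higher 19 in place of 36. With the erythroid markers as a covariate, list genes lower numbered 9 in place of 15. *Prpsap1* moved from 0.51 to 0.37 with the length curve removed and 0.22 with length and GC removed, and lay between 0.45 and 0.59 under the other settings. With the length curve removed the sign changed for the called list genes *Gmps* (0.12), *H6pd* (0.0666), *Nampt* (0.0849), *Hprt* (-0.10), *Nme2* (-0.088) and *Rpia* (-0.0072), the last 3 outside the rule for named genes. With length and GC removed, it changed among the named list genes that were called for *Adssl1* (-0.0768), *Gmps* (0.35), *Guk1* (-0.0885), *Aprt* (-0.0423), *Nampt* (0.30), *Uck1* (-0.058) and *Fpgs* (-0.0354). The cause was not tested. Of 442 values for 34 named list genes, 375 stayed on the same side of the threshold, 57 lost it and 10 changed sign. The 375 include differences that shrank, such as *Pfas* from -0.60 to -0.19 with the length curve removed. *Adss*, which was not called with or without the curves, went from -0.09 to 0.06 with length and GC removed and is among the 375. Of the genes called without the length curve, 6030 were called with it, 511 of them in the opposite direction.

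Leaving out a mouse from each diet gave 8572 to 9379 genes called, *Prpsap1* from 0.49 to 0.55, 4 and 4 members, and 31 to 36 list genes higher and 10 to 16 lower. Replicate numbers did not pair the mice (correlations of same-numbered mice from -0.278 to 0.264, 3 of 10 above 0.1, and 3 mice best matched by their own number). The replicate block gave 8912 genes called, 4 and 4 members, 34 list genes higher and 13 lower, and 0.51 for *Prpsap1*. DESeq2 and its size factors, and no filter on low counts, kept the same 8 members past the threshold. The library numbers as a covariate or alone, and the ratios with the length curve removed, were chosen after seeing the data. *Prpsap2*, with 64 to 123 read pairs per heart, rests on the fewest counts among the members.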
